A study of Mus musculus with 40 samples.

Results

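Tumors of mice treated with the Fc-dead anti-GARP:TGF-β1 antibody alone were compared with tumors of mice that received the isotype control antibody, across all genes of the count table. The members were the 5 libraries tagged as anti-GARP:TGF-β1 FcD and the 5 tagged as mIgG2a isotype control, which are 10 of the 40 libraries of the series. Every mouse was a BALB/c animal, 6 to 12 weeks old, that carried a subcutaneous tumor grown from 1000000 CT26 cells, a transplantable mouse colon carcinoma line. Antibodies were given into the peritoneum on days 6, 9 and 12 after implantation, and tumors were collected on day 13. The FcD group received clone 58A2 in a mouse IgG2a backbone whose Fc region was mutated so that it binds no Fcγ receptor (FcγR). The isotype group received motavizumab as an mIgG2a, an antibody against a respiratory virus protein that has no target in these mice. Its tag names no Fc mutation, and in the paper's binding assay motavizumab with an unmutated mIgG2a Fc bound mouse FcγRs. Target and FcγR binding thus both differ between the groups, and their parts cannot be told apart. For context, 5 mice given the same clone with an intact Fc (WT) and 5 mice given FcD together with an Fc-silent anti-PD-1 were set beside them. Another 5 mice given that anti-PD-1 alone entered a test of whether the effect of FcD differed with anti-PD-1. Each library is 1 fragment of 1 tumor, so it mixes tumor cells, stroma and infiltrating cells.

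GARP, the product of Lrrc32, is a membrane protein of activated regulatory T cells (Tregs), platelets and some endothelial cells. It holds latent TGF-β1 on the cell surface, from which the integrin αVβ8 can release the active cytokine. Active TGF-β1 signals through a pair of kinase receptors to Smad transcription factors, restrains T cell effector functions and drives matrix genes in stroma. The antibody binds the GARP:TGF-β1 complex and blocks that release. The comparison asks which tumor transcripts differ after 3 injections of its form that cannot engage FcγRs, against a control without the Fc mutation.

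Library totals in the 10 mice ran from 11931730 to 16232524 counts, with 14182100 ± 1387440 (SD) in the isotype group and 14338900 ± 1534480 in the FcD group (exact permutation test, 2-sided, p = 0.889, where the smallest p possible is 0.00794). In the series, libraries numbered 41 to 60 held Y-linked Ddx3y counts and almost no Xist, and libraries numbered 61 to 80 held Xist counts and no Ddx3y. Each of the compared groups had 2 libraries of the first kind and 3 of the second. Pairs of mice within a group differed far beyond counting noise, with a chi-square per degree of freedom of 5.4 to 29.4, so no library was counted as a duplicate. The leukocyte gene Ptprc was at 107 to 176 counts per 1000000 mapped counts (CPM) in the isotype mice and at 85.3 to 152 in the FcD mice. The 12 tested epithelial and intestinal carcinoma genes summed to 101 to 164 CPM in isotype and 98.5 to 137 CPM in FcD tumors. In counts pooled over each group, Krt20, an intestinal keratin, made up most of that sum at 88.4 CPM in isotype and 83.6 CPM in FcD tumors, whereas the epithelial adhesion gene Epcam was at 0.914 and 0.846 CPM and E-cadherin (Cdh1) at 1.53 and 2.07 CPM. FcD mouse 5 stood apart within its group, with the lowest level of the 10 mice in every T cell, natural killer (NK) cell, interferon-γ and antigen presentation list described below. FcD mouse 4 stood apart in B cell genes, and isotype mouse 3 had the highest ribosomal protein and respiratory chain levels. For most lists the median is also given with single mice left out.

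No gene passed the test between FcD and isotype tumors. Of 14760 genes tested with edgeR's quasi-likelihood test, 0 (0%) passed a Benjamini-Hochberg adjusted p of 0.05, and the lowest adjusted p was 0.99996. At an unadjusted p under 0.05 there were 39 genes higher in FcD (0.264%) and 31 lower (0.21%). If no gene differed and the p values were exact, a share of 0.05 of the genes would be expected there. Fewer were found, so p values may be too high and intervals too wide in this model of all groups. Its median SE was 0.156, against 0.111 with only the groups compared, where 143 of 13495 genes were under 0.05. Genes are not independent, so the shortfall is no test, and its cause was not tested. With the Wald test of DESeq2, 0 genes passed after adjustment and 67 before it. The log2 fold changes were centred on 0.00 (median), and from the 5th to the 95th percentile they ran from -0.31 to 0.30.

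**Figure D1:**
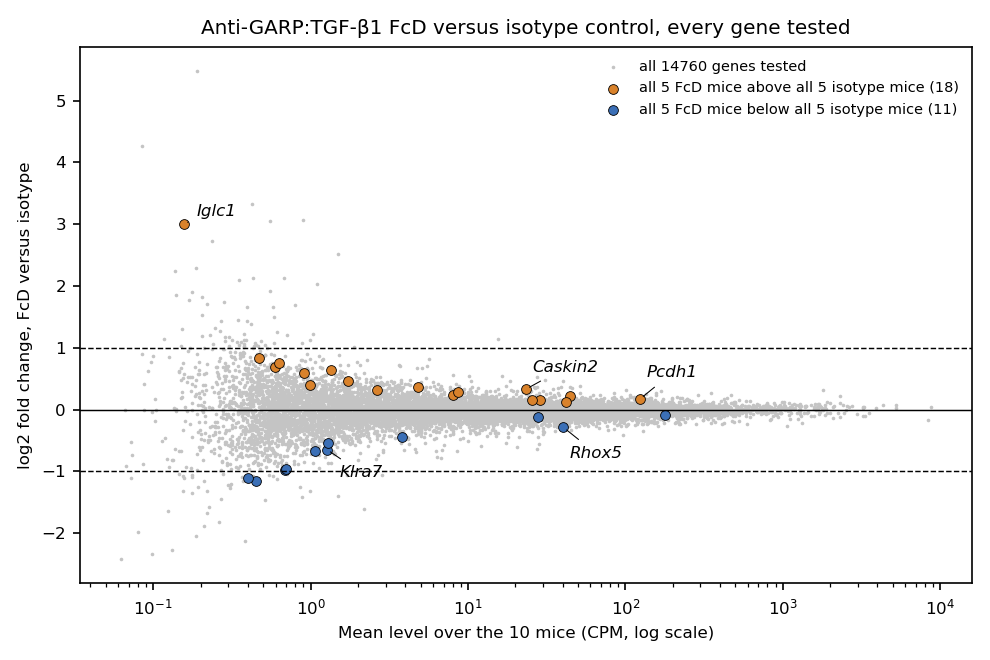
Log2 fold change of FcD versus isotype (vertical axis) against the mean level over the 10 mice in CPM (horizontal axis, log scale) for the 14760 genes tested. Orange points are the 18 genes whose 5 FcD mice all lie above the 5 isotype mice, blue points the 11 whose FcD mice all lie below, and dashed lines mark a 2-fold change. Genes past 2-fold sit almost only at the left, where the counts are lowest.

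For 12295 genes (83.3%) the 95% interval of the fold change lay within a 2-fold change either way. That share was 92.4% among the 12936 genes at a mean of at least 1 CPM, 98.2% among the 9603 at 10 CPM or more, and 99.2% among the 2264 at 100 CPM or more. Fitted changes past 2-fold were seen for 66 genes upward and 49 downward, and 98 of these 115 genes were below 1 CPM in both groups. At a mean of at least 10 CPM, 1 gene was past 2-fold.

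Mice of different treatments were as close to each other as mice of 1 treatment. The root mean square difference in log2 CPM over 13178 genes averaged 0.429 between isotype mice (10 pairs), 0.433 between FcD mice (10 pairs) and 0.409 between an FcD and an isotype mouse (25 pairs). Within libraries 41 to 60 an FcD and an isotype mouse differed by 0.383 on average, within libraries 61 to 80 by 0.373, and across these parts by 0.445. The averages within a treatment also take in pairs from different library parts.

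None of the genes for the molecules that the antibody engages passed the test. Lrrc32, which encodes GARP (GRCm38 chromosome 7, 98489283 to 98502181, plus strand), was at 4.64, 5.75, 5.07, 3.22 and 1.66 CPM in isotype mice 1 to 5 and at 5.01, 3.09, 4.11, 3.31 and 3.78 CPM in FcD mice 1 to 5. The FcD values all lay inside the isotype range. The log2 fold change was -0.07 (SE 0.445), with an interval from 0.508-fold to 1.78-fold. Over the alternatives run it ranged from -0.27 to 0.08.

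Tgfb1, the gene of the bound cytokine (chromosome 7, 25687002 to 25705077, plus strand), was at 89.4, 88.7, 110, 92.4 and 91.2 CPM in isotype tumors and at 115, 80.5, 98.9, 97.8 and 94.6 CPM in FcD tumors. FcD mouse 1 lay above and FcD mouse 2 below all isotype mice, and the interval ran from 0.821-fold to 1.30-fold. Tgfb3, another isoform, was at 34.4 ± 8.78 CPM in isotype and 32.3 ± 4.67 CPM in FcD tumors, and Tgfb2 at 0.945 ± 0.268 and 0.858 ± 0.281 CPM. Itgb8, the β chain of the activating integrin, was at 1.22 ± 0.368 CPM in isotype and 1.41 ± 0.589 CPM in FcD tumors, and the groups overlapped. Nrros, a protein that carries latent TGF-β1 on macrophages, was the list member with the lowest fold change, at 63.7 ± 6.02 against 56.9 ± 10.5 CPM. Of the 16 tested genes for latent TGF-β complexes and their activation, 8 lay above and 8 below 0, with a median log2 fold change of 0.02, and 15 had an interval within 2-fold.

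Genes downstream of the cytokine had medians close to 0. Of 18 receptor, Smad and feedback genes, 8 lay above 0 and 10 below (median -0.01), and all 18 intervals lay within 2-fold. Smad7, the inhibitory Smad that TGF-β induces directly, was at 36.3, 31.6, 28.1, 30.2 and 24.3 CPM in isotype mice and at 31.7, 33.8, 24.8, 30.4 and 28.8 CPM in FcD mice. All FcD values lay within the isotype range, and the interval of the log2 fold change ran from -0.28 to 0.26. Tgfbr3, a coreceptor, had the highest fold change of its list, at 79.4 ± 6.86 CPM in isotype and 90.6 ± 6.79 CPM in FcD tumors, where 3 FcD mice lay above all isotype mice (unadjusted p = 0.156, log2 fold change 0.19).

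Among 20 TGF-β target genes of stroma, 9 lay above 0 and 11 below, with a median of -0.01 that ranged from -0.14 without FcD mouse 1 to 0.06 without isotype mouse 3. Their summed level was 2342 to 2838 CPM in isotype mice, 2794 CPM in FcD mouse 1 and 2859 to 3321 CPM in FcD mice 2 to 5, above every isotype mouse. Fibronectin (Fn1) alone, in counts pooled over each group, was at 1600 CPM in isotype and 1996 CPM in FcD tumors. Postn, the matricellular protein periostin, was the lowest with 20.8 ± 11.1 CPM in isotype and 14.3 ± 3.47 CPM in FcD tumors, and the FcD mice all lay inside the isotype range. Of 17 collagen genes, 6 lay above 0 and 11 below (median -0.03). The basement membrane collagen Col4a2 was at 267 ± 19.5 CPM in isotype and 314 ± 48.1 CPM in FcD tumors, with 4 FcD mice above and 1 below all isotype mice. Without FcD mouse 5 the collagen median was -0.17, and without FcD mouse 2 it was 0.05.

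**Figure D2:**
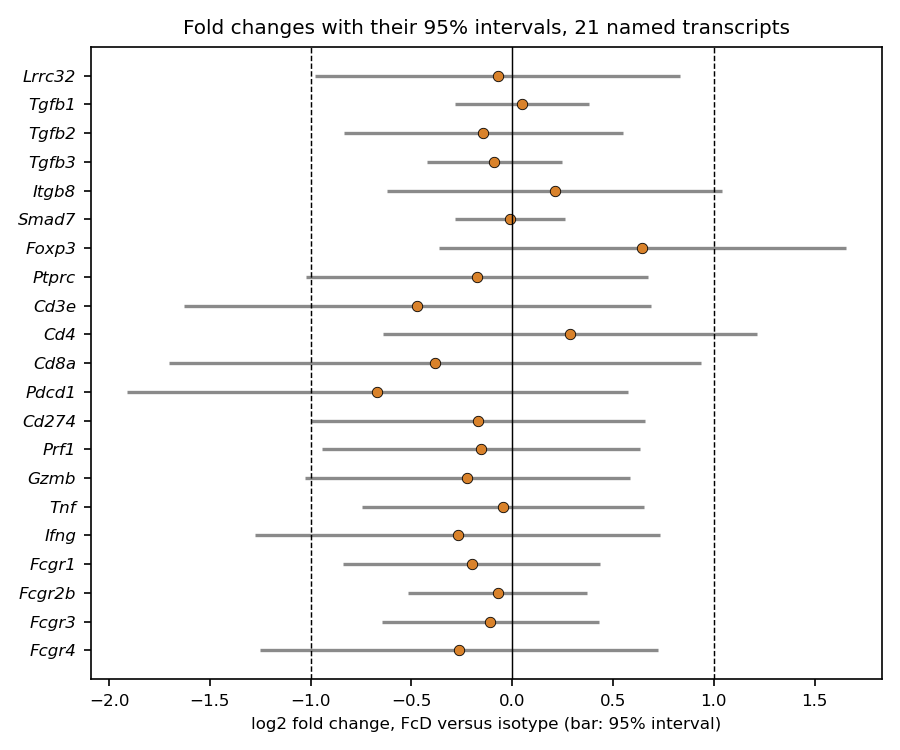
Log2 fold change of FcD versus isotype for 21 named transcripts (points) with the 95% interval of the edgeR fit (bars) on the horizontal axis, ordered by role from the GARP:TGF-β1 complex to Fcγ receptors. Dashed lines mark a 2-fold change either way, and all 21 intervals cover 0.

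Treg transcripts varied more between mice than between treatments. Foxp3, the lineage factor of Tregs (chromosome X, 7573644 to 7595245, plus strand), was at 1.17, 0.52, 0.62, 0.39 and 0.55 CPM in isotype mice and at 1.36, 1.34, 0.21, 1.69 and 0.60 CPM in FcD mice, which stands for 5 to 19 and 3 to 25 counts per library. FcD mice 1, 2 and 4 lay above every isotype mouse and FcD mouse 3 lay below them all. The log2 fold change was 0.65 (SE 0.498), with an interval from 0.777-fold to 3.15-fold and an unadjusted p of 0.203. Without FcD mouse 4 it was 0.40, and without isotype mouse 1 it was 0.97.

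Ikzf4, the transcription factor Eos that works with Foxp3, was the highest Treg gene at 0.452 ± 0.213 CPM in isotype and 0.769 ± 0.409 CPM in FcD tumors (unadjusted p = 0.122, 0.0391 without FcD mouse 5, and also under 0.05 without isotype mouse 1). Icos, a costimulatory receptor, was the lowest at 0.651 ± 0.240 and 0.433 ± 0.252 CPM. Some members of the list stood far above Foxp3. In counts pooled over each group, Capg was at 452 and 442 CPM and Il1rl1 at 396 and 407 CPM in isotype and FcD tumors. How much of that RNA came from Tregs was not tested. Of the 19 tested genes of the Treg list 7 lay above 0 and 12 below, with a median of -0.05. With 1 mouse left out it ranged from -0.20 without isotype mouse 4 (13 of 19 below 0) to 0.05 without FcD mouse 5 (12 of 19 above 0). In bulk tumor RNA, fewer cells of a type and less RNA per cell cannot be told apart, and this holds for every cell type list that follows.

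T cell genes mostly had negative fold changes in FcD tumors, and none passed the test. Cd8a, the CD8 coreceptor (chromosome 6, 71373427 to 71379173, plus strand), was at 18.2, 22, 12.9, 18.2 and 6.51 CPM in isotype mice and at 13.2, 6.43, 15.4, 21.2 and 3.19 CPM in FcD mice. The groups overlapped over most of their range, with FcD mouse 2 just below and FcD mouse 5 well below the lowest isotype mouse. The log2 fold change was -0.38 (SE 0.65), with an interval from 0.307-fold to 1.91-fold. It was -0.70 without FcD mouse 4 and -0.14 without FcD mouse 5.

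Cd3e, a chain of the T cell receptor complex, was at 7.10 ± 2.54 CPM in isotype and 5.10 ± 2.68 CPM in FcD tumors. Cd4 was the only gene of the 18 in that list with a positive fold change, at 1.77 ± 0.579 and 2.17 ± 0.935 CPM. The list median was -0.40 with 17 of 18 genes below 0, where 51.0% of all genes tested lay below 0. Of the 18 genes 2 had an interval within 2-fold, so for the other 16 a change of that size lies inside the interval. Without FcD mouse 5 the median was -0.16, without FcD mouse 4 it was -0.63, and in the level per mouse the difference was -0.79 within libraries 41 to 60 and -0.15 within libraries 61 to 80. Genes of 1 list share the same 10 mice and are not independent, so the number on 1 side of 0 carries no test.

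Pdcd1, which encodes PD-1, was at 14.4, 11.4, 10.1, 9.59 and 6.65 CPM in isotype mice and at 7.61, 3.51, 9.20, 10.4 and 2.06 CPM in FcD mice. FcD mice 2 and 5 lay below every isotype mouse and the other FcD mice within their range. The log2 fold change was -0.67 (SE 0.613), with an unadjusted p of 0.282 and an interval from 0.266-fold to 1.49-fold.

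Of 12 genes of the PD-1 axis and other inhibitory receptors, 10 lay below 0, with a median of -0.26 that ranged from -0.36 without FcD mouse 4 to -0.01 without FcD mouse 5. Cd274, which encodes the ligand PD-L1, was at 124, 101, 71.9, 63.6 and 58.5 CPM in isotype mice and at 108, 69.7, 77.2, 92.6 and 25.5 CPM in FcD mice. FcD mouse 5 alone lay outside the isotype range. The log2 fold change of Cd274 was -0.17 with all mice, 0.05 without FcD mouse 5 and -0.34 without FcD mouse 1.

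Cytotoxic effector genes were also lowest in FcD mouse 5. Prf1, which encodes perforin, was at 54.9, 38.0, 56.0, 33.9 and 38.7 CPM in isotype mice and at 47.0, 43.3, 47.8, 49.0 and 11.8 CPM in FcD mice. FcD mice 1 to 4 lay between 43.3 and 49.0 CPM, and FcD mouse 5 lay below every isotype mouse. The log2 fold change was -0.16 (SE 0.389) with all mice, 0.08 without FcD mouse 5 and -0.24 without FcD mouse 4.

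Gzmb, the serine protease granzyme B, was at 75.0, 52.9, 81.8, 34.7 and 54.1 CPM in isotype and 73.2, 48.5, 59.1, 55.4 and 19.8 CPM in FcD tumors, again with FcD mouse 5 lowest. Ifng, the gene of interferon-γ, was at 1.61, 1.57, 1.46, 0.79 and 0.55 CPM in isotype and at 1.55, 0.92, 1.13, 1.15 and 0.20 CPM in FcD mice, and its log2 fold change was -0.27 with all mice, -0.01 without FcD mouse 5 and -0.50 without FcD mouse 1. Tnf was at 8.35 ± 2.09 and 8.09 ± 2.69 CPM. Of 20 cytotoxic genes 7 lay above 0 and 13 below, and the median of -0.12 ranged from -0.23 without FcD mouse 1 to 0.04 without FcD mouse 5. It was -0.01 without isotype mouse 1 and -0.02 without isotype mouse 3, with 10 of 20 above 0 in both, and -0.22 without isotype mouse 4, with 19 of 20 below. Gzmg, a granzyme of strongly stimulated lymphocytes, ranged from 2.92 to 98.9 CPM among the 5 FcD mice and from 3.46 to 54.9 CPM among the isotype mice.

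All 9 tested NK cell genes had a negative fold change, with a median of -0.33. Klra7, an inhibitory receptor of the Ly49 family, was at 1.36, 1.94, 1.67, 1.34 and 1.45 CPM in isotype mice and at 0.56, 1.25, 1.27, 1.08 and 0.80 CPM in FcD mice, so that every FcD mouse lay below every isotype mouse. Its log2 fold change was -0.65 (SE 0.318, unadjusted p = 0.0491), and its reads may be shared with near-identical family members. The p exceeded 0.05 without isotype mouse 2, 3 or 5 and without FcD mouse 1, 4 or 5, and was highest without FcD mouse 1 at 0.14. It was 1 of the 11 such genes below (0.0745% of all genes tested). Ncr1, which encodes the activating NK receptor NKp46, was at 6.41 ± 2.37 and 5.99 ± 1.52 CPM. The NK median ranged from -0.46 without isotype mouse 4 to -0.18 without FcD mouse 5, where 8 of 9 genes lay below 0.

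**Figure D3:**
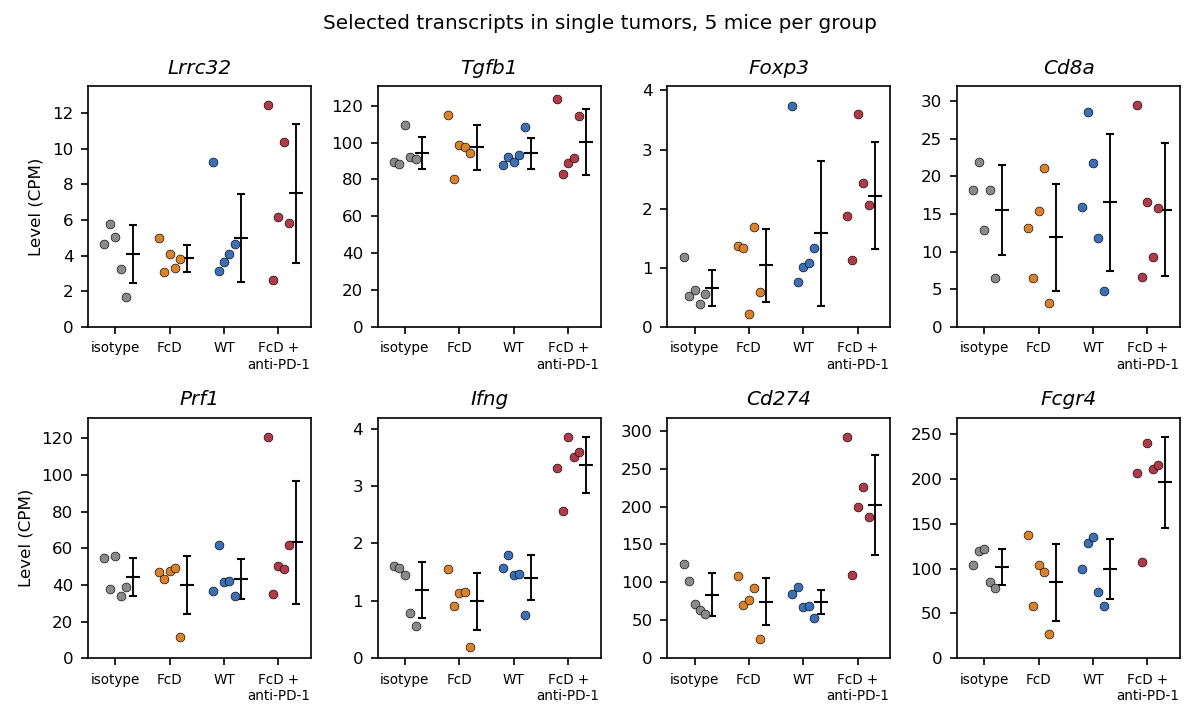
Level of 8 transcripts in CPM (vertical axis, from 0) in each tumor of the isotype, FcD, WT and FcD plus anti-PD-1 groups; points are single mice in library order, and the bar beside them is the mean ± SD (5 mice). For Prf1, Ifng, Cd274 and Fcgr4 the lowest FcD point is FcD mouse 5, and FcD mice 1 to 4 lie within the isotype range for Prf1, Ifng and Cd274, whereas for Fcgr4 FcD mouse 1 lies above it and FcD mouse 2 below it.

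Interferon-γ induces antigen presentation and chemokine genes in tumor and myeloid cells, and these genes separated FcD mouse 5 from the rest. The mean log2 CPM of 24 core response genes was 6.71, 6.63, 6.46, 6.08 and 6.00 in isotype mice and 6.88, 6.08, 6.35, 6.35 and 4.84 in FcD mice. FcD mouse 1 was the highest of the 10 and FcD mouse 5 the lowest by more than 1 log2 unit. The median log2 fold change was -0.17 with 23 of 24 genes below 0 over all mice, and 0.02 with 5 of 24 below 0 without FcD mouse 5. The median was -0.40 without FcD mouse 1, -0.09 without isotype mouse 1 and -0.08 without isotype mouse 2. Socs1, a feedback inhibitor, was the only positive member at 22.9 ± 6.23 and 24.6 ± 9.07 CPM, and Gbp7, an interferon-induced GTPase, was the lowest at 146 ± 44.1 and 115 ± 37.5 CPM.

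Antigen presentation genes, too, moved with single mice. Of 16 MHC class I genes all lay below 0 (median -0.10) with every mouse, 4 of 16 lay below 0 (median 0.03) without FcD mouse 5, and the median was -0.16 without FcD mouse 1. All 16 had an interval within 2-fold, among them Tap2, a subunit of the peptide transporter, at 255 ± 46.7 and 222 ± 66.1 CPM. Of 12 MHC class II genes 10 lay below 0 (median -0.09) with every mouse and 2 lay below 0 (median 0.17) without FcD mouse 5. Without isotype mouse 2 the class II median was 0.13 with 9 of 12 genes above 0, and without FcD mouse 2 it had 6 of 12 above 0. The class II median was -0.28 without FcD mouse 1, and -0.18 without isotype mouse 4, isotype mouse 5 or FcD mouse 4. Their summed level was 698.7 CPM in FcD mouse 5, against 1517 to 3108 CPM in the other FcD mice and 1600 to 3064 CPM in the isotype mice.

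The type I interferon-stimulated antiviral genes kept their sign whichever mouse was left out. All 22 had a negative log2 fold change, from -0.24 for Ifi44 to -0.08 for Oasl1, with a median of -0.18. All 22 were below 0 with each of the 10 mice left out, and the median then ranged from -0.22 to -0.12. The mean log2 CPM of the list was 6.33, 6.15, 6.05, 6.08 and 5.93 in isotype mice and 5.92, 5.85, 6.08, 6.06 and 5.72 in FcD mice, so FcD mice 1, 2 and 5 lay below every isotype mouse and FcD mice 3 and 4 within their range.

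Ifi44, an interferon-induced protein, was at 156, 138, 98.8, 134 and 120 CPM in isotype and at 93.1, 109, 126, 128 and 90.8 CPM in FcD mice (unadjusted p = 0.305). The list level differed by -0.35 within libraries 41 to 60 and by -0.07 within libraries 61 to 80. All 22 intervals lay within 2-fold, and no member reached an unadjusted p of 0.05.

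**Figure D4:**
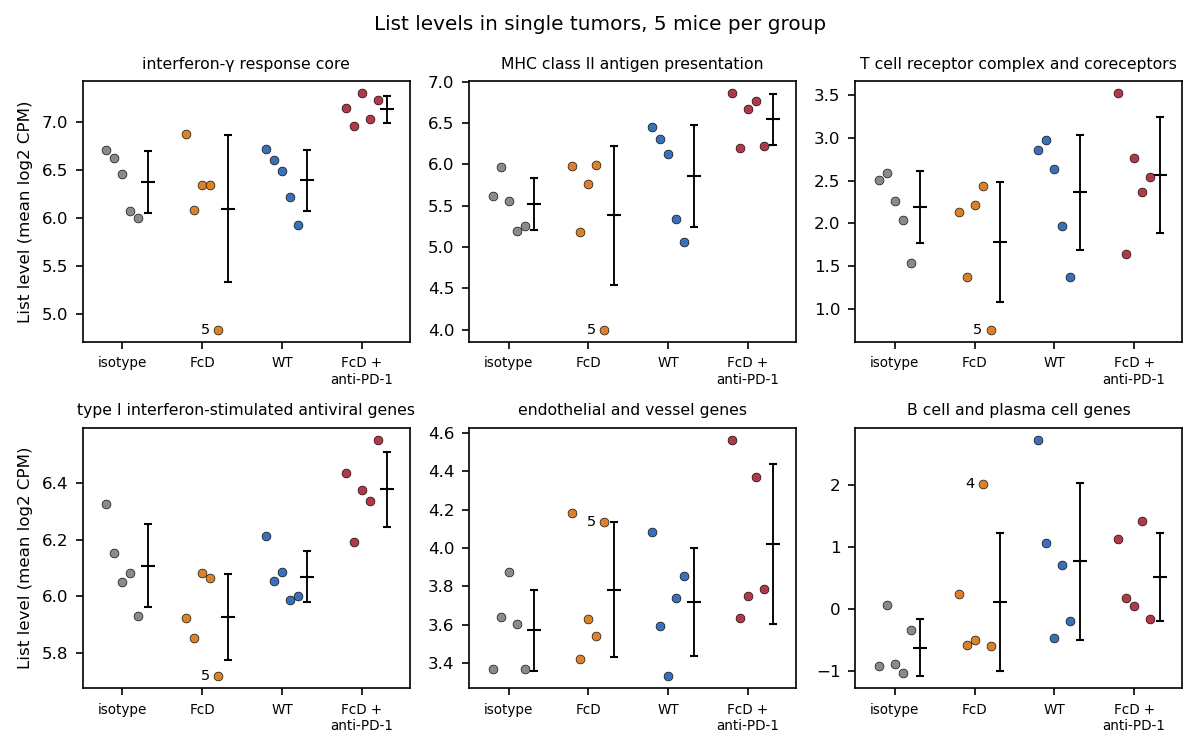
Level of 6 gene lists (mean log2 CPM of the list's genes, vertical axis) in each tumor of 4 groups; points are single mice in library order and bars are the mean ± SD (5 mice). The label 5 marks FcD mouse 5, which among isotype and FcD mice is lowest in the interferon-γ, MHC class II, T cell and type I interferon panels and second highest in the endothelial panel, and the label 4 marks FcD mouse 4, highest of the isotype and FcD mice in the B cell panel.

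The FcγR genes bear on the mutated Fc region, since these receptors on macrophages and NK cells bind the Fc of IgG2a antibodies. Fcgr4, which encodes FcγRIV, an activating receptor of myeloid cells, was at 104, 119, 122, 85.0 and 78.7 CPM in isotype mice and at 138, 58.0, 104, 96.5 and 27.6 CPM in FcD mice. The highest and the lowest of the 10 values were both in FcD mice. Its log2 fold change was -0.27 (SE 0.487), -0.04 without FcD mouse 5 and -0.51 without FcD mouse 1.

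Fcgr1 was at 98.9 ± 7.55 and 86.0 ± 24.3 CPM, the inhibitory Fcgr2b at 212 ± 47.4 and 202 ± 24.7 CPM, and Fcgr3 at 128 ± 22.3 and 119 ± 16.8 CPM in isotype and FcD tumors. The FcγR list also held the signaling chain gene Fcer1g, and Fcgrt and Trim21, which are not FcγR genes. All 7 genes of the list lay below 0, with a median of -0.10, and 6 had an interval within 2-fold. With 1 mouse left out the median ranged from -0.22 without FcD mouse 1 (7 of 7 below 0) to -0.04 without FcD mouse 5 (5 of 7 below 0). Of 20 tumor-associated macrophage genes 8 lay above and 12 below 0 (median -0.04). That median ranged from -0.12 without isotype mouse 4 (15 of 20 below 0) to 0.00 without FcD mouse 4 (10 of 20 below 0), and 17 of 20 lay below 0 without FcD mouse 5. The complement gene C1qa was at 510 ± 119 and 449 ± 119 CPM. Lyve1, a hyaluronan receptor of lymphatic vessels and some macrophages, was at 1.42 to 3.76 CPM in FcD mice 1 to 4 and at 11.8 CPM in FcD mouse 5, against 3.09 to 5.08 CPM in the isotype mice.

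Monocyte chemokines and receptors (12 genes, median -0.13), neutrophil genes (13 genes, median -0.06) and dendritic cell genes (16 genes, median -0.08) spread to both sides of 0. The neutrophil median was 0.19 without isotype mouse 1 and -0.32 without FcD mouse 1. That of the monocyte list ranged from -0.18 without FcD mouse 1 to -0.03 without isotype mouse 1, and that of the dendritic cell list from -0.14 without FcD mouse 1 to 0.01 without FcD mouse 5. Ccl8, a monocyte chemokine, shows the size of the spread between mice, at 20.7 to 156 CPM in isotype and 17.9 to 138 CPM in FcD tumors. The 18 TNF and NF-κB feedback genes were close to 0, with a median of -0.02 and all 18 intervals within 2-fold. Il6, an inflammatory cytokine, had the highest fold change of 14 genes of the IL-1 family and related cytokines, at 0.456 ± 0.268 and 0.783 ± 0.422 CPM. Il18, a cytokine of the same family, was at 5.44, 3.66, 4.23, 3.38 and 3.26 CPM in isotype mice and at 2.78, 2.59, 3.11, 3.45 and 2.66 CPM in FcD mice, where FcD mouse 4 alone overlapped the isotype range (log2 fold change -0.45, unadjusted p = 0.0835).

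B cell genes gave the highest median of the 33 textbook lists, and it rested on FcD mouse 4. Of 16 B cell and plasma cell genes 15 lay above 0, with a median log2 fold change of 1.44, and without FcD mouse 4 the median was 0.32 with 11 of 16 above 0, while without isotype mouse 2 it was 1.91. With only the 10 mice of these groups in the model the median was 0.56, taken over the members that passed the filter on low counts, which was rerun on those mice. In the main model 4 of the 16 genes had under 10 counts in a group. The 16 genes summed to 41.0, 62.8, 52.7, 47.1 and 50.3 CPM in isotype mice and to 68.1, 36.0, 61.7, 119 and 35.9 CPM in FcD mice. FcD mice 2 and 5 lay below every isotype mouse in this sum, although the median over the genes was positive.

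Cr2, the complement receptor of B cells and follicular dendritic cells, had 0, 2, 0, 0 and 3 counts in isotype libraries and 12, 4, 1, 38 and 3 counts in FcD libraries. Iglc1, an immunoglobulin light chain segment with close copies in its locus, had 2 counts over the isotype libraries and 21 over the FcD libraries, at least 2 in each FcD mouse. The ratio was 10.4 with a counting interval of 2.53 to 91.1, an exact binomial interval that covers counting error only, and the fit across mice gave an unadjusted p of 0.106. Iglc1 was 1 of the 18 genes (0.122%) with every FcD mouse above every isotype mouse.

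Endothelial and vessel genes had positive fold changes, and none passed the test. All 17 tested members had a positive fold change, from 0.08 for Apln to 0.68 for Sox17, with a median of 0.21, and 10 had an interval within 2-fold. Over the alternatives run, the log2 fold change of Apln ran from -0.01 to 0.13 and that of Sox17 from 0.23 to 0.94. The list level was 3.37, 3.64, 3.87, 3.6 and 3.37 in isotype mice and 4.18, 3.42, 3.63, 3.54 and 4.14 in FcD mice, so FcD mice 1 and 5 lay above every isotype mouse and the other 3 within their range. Sox17, an arterial transcription factor, was at 0.876 ± 0.345 and 1.40 ± 0.917 CPM (unadjusted p = 0.221). Without FcD mouse 1 the median was 0.12 and 15 of 17 genes lay above 0, and without FcD mouse 5 it was 0.17 with 16 of 17 above 0. It was 0.32 without FcD mouse 2 and 0.31 without isotype mouse 3, with 17 of 17 above 0 in both. Platelet genes, which also belong to GARP-bearing cells, passed the filter on low counts for 3 of 12, and Pf4 (platelet factor 4) was at 16.6 ± 5.56 and 20.8 ± 11.9 CPM.

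**Figure D5:**
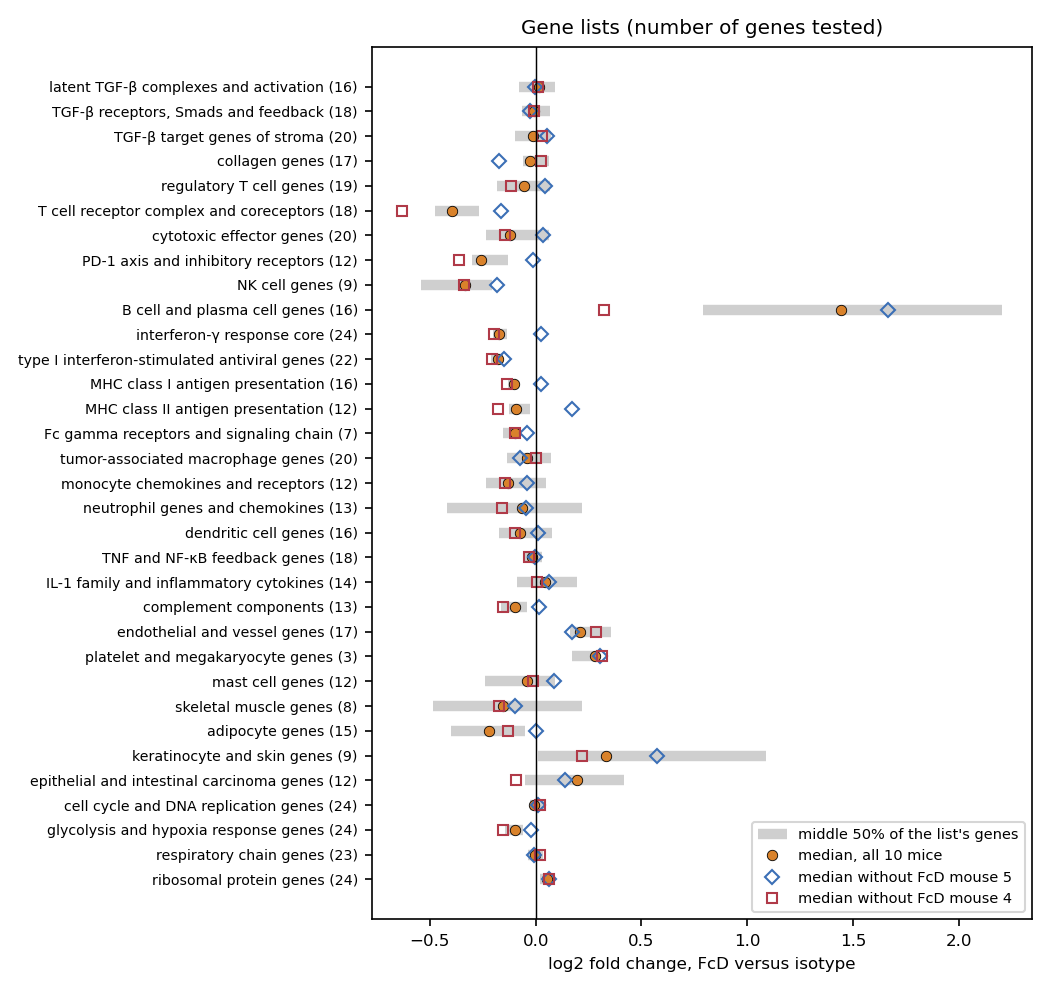
Median log2 fold change of FcD versus isotype (horizontal axis) for 33 gene lists with the number of genes tested in parentheses. Orange points use all 10 mice and gray bars span the middle 50% of the genes; blue diamonds leave out FcD mouse 5 and red squares FcD mouse 4. Without FcD mouse 5 the interferon-γ, MHC and PD-1 lists lie between -0.01 and 0.17, the B cell list moves toward 0 without FcD mouse 4, and the type I interferon and endothelial lists keep their side.

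Cell cycle, respiratory chain and ribosomal protein genes had medians close to 0. Of 24 cell cycle and DNA replication genes 11 lay above and 13 below 0 (median -0.01), and all 24 intervals lay within 2-fold. Ccna2, which encodes cyclin A, was at 218, 232, 232, 235 and 240 CPM in isotype and at 237, 209, 217, 202 and 215 CPM in FcD mice. Of its FcD values 4 lay below all isotype values, and its log2 fold change was -0.10 (unadjusted p = 0.385).

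Respiratory chain genes (23, median 0.00) and ribosomal protein genes (24, median 0.05, 19 above 0) also had every interval within 2-fold. Without isotype mouse 3, which stood apart in both lists, the respiratory chain median was 0.07 with 19 of 23 above 0 and the ribosomal median 0.14 with 24 of 24 above 0. Of 24 glycolysis and hypoxia genes 22 lay below 0 with a median of -0.10, which ranged from -0.15 without FcD mouse 4 to -0.02 without FcD mouse 5. Car9, a hypoxia-induced carbonic anhydrase, was at 33.4 ± 11.7 and 26.2 ± 13.8 CPM. Lists of cells from neighbouring tissue varied with single mice. The median of 15 adipocyte genes, -0.22, ranged from -0.55 without FcD mouse 2 to 0.49 without isotype mouse 1, and Krt15, a basal keratin, had 0 counts in all isotype libraries and 23 and 4 counts in FcD mice 3 and 5. Its unadjusted p of 0.0182 became 0.207 without FcD mouse 3, and the keratinocyte list median moved from 0.33 to -0.03, against 0.57 without FcD mouse 5.

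The cytokine response lists that the study derived from human cells exposed to cytokines in culture gave medians close to 0. They were -0.07 for 206 interferon-γ-induced genes, -0.03 for 277 TNFα-induced genes, -0.01 for 268 IL-1β-induced genes and -0.03 for 113 TGF-β1-induced genes. For 40 genes induced by TGF-β1 in a human CD4 T cell clone the median was -0.04. Across the 5 lists no gene reached an unadjusted p of 0.05, where the share over all genes was 0.264% higher and 0.21% lower. With all mice 72 of the 206 interferon-γ-induced genes lay above 0 and 134 below. With FcD mouse 5 left out the interferon-γ median was -0.01 with 100 of 206 genes above 0, and with FcD mouse 1 left out it was -0.11. The level of that list was 5.56, 5.50, 5.52, 5.34 and 5.29 in isotype mice and 5.56, 5.31, 5.45, 5.42 and 5.06 in FcD mice.

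Over all genes tested, 29 had groups that did not overlap, 18 with all FcD mice above and 11 with all below, Iglc1 and Klra7 among them, and 5 of each were gene models named by a clone, Gm number or RIKEN identifier. Without any effect, groups of 5 separate completely in either direction with a probability of 0.00794 per gene. The 29 of 14760 genes are a smaller share than that, so non-overlap here carries no evidence of an effect. The smallest unadjusted p of all genes belonged to Caskin2, a scaffold protein of the Caskin family (chromosome 11, 115799183 to 115813639, minus strand). It was at 22.4, 20.1, 20.1, 19.1 and 21.8 CPM in isotype mice and at 23.8, 24.6, 28.2, 26.0 and 27.4 CPM in FcD mice. Every FcD mouse lay above the highest isotype mouse, the fold change was 1.26 (interval 1.1 to 1.44, unadjusted p = 0.0015), and the difference was 0.19 log2 units within libraries 41 to 60 and 0.42 within libraries 61 to 80. Its adjusted p, like that of every other gene, was close to 1.

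Emc1, a subunit of the membrane protein insertion complex of the endoplasmic reticulum, was at 41.2 ± 2.62 and 47.9 ± 2.12 CPM (fold change 1.16). Other genes with every FcD mouse above were Rccd1 (7.83 ± 0.510 and 9.53 ± 1.55 CPM), the potassium channel gene Kcnk5 (4.18 ± 0.494 and 5.40 ± 0.332 CPM), Cnnm3 (27.1 ± 0.718 and 30.2 ± 1.79 CPM) and the protocadherin gene Pcdh1 (117 ± 3.50 and 131 ± 10.6 CPM). Efcab8 and Cfap54 were below 1 CPM in both groups. Among Caskin2, Emc1, Rccd1, Kcnk5, Cnnm3 and Pcdh1 the fold changes ran from 1.11 (Cnnm3) to 1.29 (Kcnk5).

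Below all isotype mice were Rhox5, a homeobox gene of the X chromosome, at 44.4 ± 2.62 and 36.4 ± 3.51 CPM, and Tmem71 at 4.41 ± 0.468 and 3.25 ± 0.275 CPM. Ccr3, the eotaxin receptor of eosinophils, was at 0.56, 1.2, 0.35, 0.55 and 0.48 CPM in isotype and at 0.31, 0.17, 0.28, 0.34 and 0.27 CPM in FcD mice. Galk2 (29.0 ± 1.37 and 26.7 ± 0.769 CPM) and Aida (184 ± 3.0 and 172 ± 9.64 CPM) differed by less than 10% of the isotype mean. None of these genes passed the adjusted threshold.

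Against the same clone with an intact Fc, FcD tumors had no gene past the adjusted threshold (0 of 14760, 0%). At an unadjusted p under 0.05, 102 genes were higher in FcD (0.691%) and 105 lower (0.711%). That count of 207 was 522 without FcD mouse 1, 121 without FcD mouse 5, 136 without WT mouse 3 and 413 with only the groups compared in the model. The FcγR genes did not pass the test in this comparison, with a log2 difference of FcD from WT of -0.11 for Fcgr1 (95% interval -0.75 to 0.52), -0.13 for Fcgr2b (-0.57 to 0.32), -0.13 for Fcgr3 (-0.67 to 0.41) and -0.23 for Fcgr4 (-1.22 to 0.76). A 2-fold difference lies inside the interval of Fcgr4 and outside the intervals of the other 3.

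Lrrc32 was at 9.28, 3.16, 3.66, 4.10 and 4.67 CPM in WT mice and Foxp3 at 3.74, 0.75, 1.01, 1.08 and 1.34 CPM, where WT mouse 1 was highest for both. The T cell receptor list had a median of -0.63 in FcD relative to WT, the MHC class II list of -0.42 and the NK list of -0.43, with 1, 0 and 1 genes lower at an unadjusted p under 0.05. Medians of other cell types were also negative, at -1.10 for adipocyte, -0.87 for skeletal muscle, -0.65 for B cell and -0.42 for mast cell genes, and their part in the immune list values was not tested. WT mice 1 to 3 were in libraries 41 to 60 and WT mice 4 and 5 in libraries 61 to 80, against FcD mice 1 and 2 and FcD mice 3 to 5. The library part was thus not balanced between FcD and WT, and these medians were not split by it. The combination mice were split as the WT mice were. The comparison of FcD with WT shares the FcD mice with the comparison to isotype, so the values of FcD mouse 5 enter both.

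The combination with anti-PD-1 had more genes at the unadjusted threshold than either comparison above. FcD plus anti-PD-1 against FcD alone gave 0 genes at the adjusted threshold in the model of all 40 mice (0%, lowest adjusted p = 0.122), and 1915 higher (13%) and 1168 lower (7.91%) at an unadjusted p under 0.05. Without the second combination mouse the unadjusted counts were 2480 higher and 2541 lower, and without the fourth they were 1208 and 652. After adjustment, DESeq2 called 205 genes there, edgeR on the 10 mice of these groups alone 476, and edgeR without the second combination mouse 719. With the library part as a covariate it called 4, Clec4e, Defb52, Elf5 and Prom2, which were named after their values were seen, and with the 10 mice and that covariate together it called 1, Fcgbp. Every alternative run for FcD against isotype gave 0 genes after adjustment.

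Ifng was at 3.31, 2.56, 3.85, 3.51 and 3.58 CPM in the combination mice, above all FcD and isotype mice, with a log2 fold change of 1.75 over FcD alone (SE 0.482, adjusted p = 0.122). Cd274 was at 202 ± 65.9 CPM in combination tumors (log2 fold change over FcD 1.44, SE 0.414). The interferon-γ core list had a median of 0.83 over FcD alone with 20 of 24 genes higher at an unadjusted p under 0.05, the type I interferon-stimulated list 0.47 with 16 of 22, and the MHC class II list 1.00 with 10 of 12. Markers of other cell types were also higher in the combination, with 15 of 15 adipocyte genes (median 3.38), 11 of 12 mast cell genes (median 1.38) and 11 of 20 TGF-β targets of stroma (median 0.61) at an unadjusted p under 0.05, and their part in the immune list values was not tested. All of these values are relative to FcD mice that include FcD mouse 5.

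Whether the effect of FcD differed with and without anti-PD-1 was tested as an interaction over the isotype, anti-PD-1, FcD and combination groups. It gave 0 genes at the adjusted threshold (0%, lowest adjusted p = 0.787), with 361 genes higher (2.45%) and 302 lower (2.05%) at an unadjusted p under 0.05. Without the second combination mouse these counts were 742 and 1039, without the second anti-PD-1 mouse 1044 and 612, and with only the groups compared 844 and 464. At that threshold 8 of 22 type I interferon-stimulated, 6 of 20 cytotoxic and 3 of 9 NK genes were higher, and 6 of 8 skeletal muscle genes lower. Of the MHC class II and B cell genes 0 were higher or lower. Genes of a list are not independent. A difference between the effects was therefore not shown for any single gene.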

How the data were processed

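RNA of 40 CT26 tumors, 5 mice in each of 8 groups, had been sequenced as stranded mRNA libraries. Per the labels and the methods, the authors aligned reads to GRCm38 with STAR 2.5.3a, used SAMtools 1.6 and counted reads per gene with HTSeq 0.9.1; the annotation release and strand setting are not given in the sources used here. The deposited values are raw counts of 54087 genes, not normalized, and every sample column was used (0 set aside). In 27 entries a date stood in place of the gene name. Groups came from the tag in the labels; each library is a separate mouse, and replicate numbers follow the order of deposition and only name mice.

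Counts were analysed in R 4.3.3 with edgeR 4.0.16 (limma 3.58.1): TMM normalization, filterByExpr by group (31326 genes with at least 1 count, 14760 tested) and the robust quasi-likelihood test (glmQLFit, glmQLFTest) in 1 model of all 40 mice, 2-sided, with Benjamini-Hochberg adjustment over all genes at 0.05. DESeq2 1.42.0 was an alternative; others were its size factors, no filter, the library part as a covariate, only the compared groups, and each mouse left out. CPM use TMM-scaled library sizes, and a list level is the mean log2 CPM with a prior count of 2. Intervals are 95% from the fit. Library totals were compared with an exact permutation test. The exact binomial interval covers counting error only. Fitting was tested on simulated data. Positions came from GENCODE M21 (GRCm38), by symbol. Figures were drawn with matplotlib 3.10.9.

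The named genes were 22 chosen by role (1 is not reported here), up to 12 per direction whose groups did not overlap (smallest p, leaving out Gm, RIKEN, Y-linked and X-inactivation genes), and in each textbook list the highest and lowest member and any member with an unadjusted p under 0.05 or groups that did not overlap. Clone-named models among them are given by count. The compared groups, gene lists and named genes were chosen with earlier results of these data known. The study's cytokine lists were matched to mouse genes by symbol.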

Additional observations from a re-analysis of the deposited data

Results flagged for a closer look

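In each group of 5 mice, the highest or the lowest value was compared with the other 4 by Dixon's criterion. Of 290 groups of values examined, 28 (9.66%) held a mouse far from the others. Chance flags about 1 in 20 groups of independent, normally distributed values, which does not hold for genes named for their extremes or with few counts, so the share is no test. FcD mouse 5 and isotype mouse 3 accounted for 7 each.

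FcD mouse 5 lay far below the rest of its group in 4 list levels (mean log2 CPM). It was at 1.16 in the regulatory T cell list (others 2.0 to 2.30), 1.78 in the cytotoxic list (2.96 to 3.40), 1.26 in the PD-1 axis list (2.44 to 2.87) and 1.36 in the NK list (2.05 to 2.29). Its Prf1 level was 11.8 CPM (43.3 to 49.0), and it was the highest for Lyve1 at 11.8 CPM (1.42 to 3.76) and for the clone-named model RP23-418A13.10 at 2.12 CPM.

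Isotype mouse 3 was lowest in the TGF-β receptor list at 5.24 (others 5.34 to 5.37) and highest in the respiratory chain list at 7.55 (7.24 to 7.31) and the ribosomal protein list at 10.7 (10.2 to 10.3). It was also highest for Tgfb1 at 110 CPM (88.7 to 92.4), Fcgrt at 103 CPM (71.3 to 78.8), Rps14 at 1340 CPM (847 to 911) and RP23-457H7.8 at 1.80 CPM.

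Among the other isotype mice, mouse 1 stood apart with 0.247 CPM of Cfap54, 2.60 CPM of Cxcr2 and 3.46 CPM of Cdh17, mouse 2 with 5.23 CPM of Tmem71 and 1.2 CPM of Ccr3, and mouse 5 with 36.6 CPM of Emc1 and 0.554 CPM of Myh4. Among the FcD mice, mouse 1 stood apart with 12.2 CPM of Rccd1 and 275 CPM of Mcm7, mouse 2 with 1.5 CPM of Il6, mouse 3 with 0.0708 CPM of Myh4 and 1.63 CPM of Krt15, and mouse 4 with 2.30 CPM of Gzmk and 2.57 CPM of Cr2. Myh4 rests on 1 count in FcD mouse 3 and 8 counts in isotype mouse 5.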

How the results depend on the processing

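The count of genes past the adjusted threshold was 0 for FcD against isotype under every alternative run. The 70 genes at an unadjusted p under 0.05 became 544 with no filter on low counts (31326 genes tested), 143 with only the groups compared in the model and 158 with those groups and the library part. With 1 mouse left out the count ranged from 55 to 113, the highest without isotype mouse 3. For FcD plus anti-PD-1 against FcD alone, the 0 genes past the adjusted threshold became 205 with DESeq2, 4 with the library part as a covariate, 476 with only the groups compared and 1 with those groups and the library part. With 1 mouse left out the count ranged from 0 to 719, the highest without the second combination mouse. The cause was not tested for either comparison. The other comparisons stayed at 0 genes past the adjusted threshold, while their unadjusted counts moved from 207 to between 121 and 764 for FcD against WT (764 with no filter) and from 663 to between 412 and 1781 for the interaction. The median of the B cell list, 1.44, was 0.56 with only the groups compared, 0.59 with the library part added and 0.32 without FcD mouse 4. Both models of only the groups compared reran the filter on low counts (13495 genes tested), so their medians cover only the members that passed it. Several list medians changed sign when 1 mouse was left out, among them those of the interferon-γ, MHC class I, MHC class II, cytotoxic and adipocyte lists. No paired analysis was possible because the labels give no replicate numbers and the numbers used here follow the order of deposition. With 5 mice a group, 83.3% of genes had an interval within 2-fold, and most fitted changes past 2-fold (98 of 115 genes) were below 1 CPM in both groups.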
